A study of Mus musculus with 12 samples.

Results

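Mitochondrial ribosomal proteins are the nuclear-encoded proteins of the mitochondrial ribosome. The members described here were chosen by gene symbol: every row whose Ensembl ID maps to a mouse symbol made of Mrpl or Mrps and a number, without pseudogene symbols ending in -ps. This gave 78 genes, 49 named Mrpl and 29 named Mrps, each with a row in all 12 libraries, out of 49585 gene IDs in liver and 55401 in macrophages. No measured value decides which gene is a member, but the family was selected on earlier results of the same 2 comparisons, so that the counts and differences given for it are a description and not a test of the family. The 5 -ps symbols left out held at most 37 counts in a library.

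Poly(A) RNA of C57BL/6 mice was sequenced, with 3 libraries in each of 4 groups. One pair of groups was liver, either untreated or taken 2 h into exposure to LPS, the lipopolysaccharide of bacterial cell walls that triggers inflammation. The other pair was peritoneal macrophages infected with a lentivirus encoding a short hairpin. LPS was added after 72 h and left on for 2 h, so both of these groups carry LPS and a virus. The hairpin was a negative control (shNC) or targeted Gm26917, a long non-coding RNA (shGm26917). No macrophages without LPS or without a virus are among the samples used here, and the knockdown has no check here because Gm26917 was not analysed here in macrophages. In liver Gm26917 held 1863, 5055 and 3674 counts untreated and 7652, 3964 and 5346 after LPS (log2 fold change 1.12, adjusted p = 0.0492), and these groups overlapped. The labels do not say whether replicates came from separate animals or cultures, so p-values may measure technical spread alone.

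The mitochondrial ribosome translates the few messenger RNAs made from mitochondrial DNA, all of which encode subunits of the respiratory chain and the ATP synthase. Its ribosomal RNAs come from mitochondrial DNA, whereas its proteins are made in the cytosol and imported. Many of these proteins have counterparts in bacterial ribosomes and others are found only in mitochondria. In liver, a tissue rich in mitochondria, respiration powers urea, glucose and lipid metabolism, while macrophages lower respiration and raise glycolysis after LPS.

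Levels are given as CPM, read counts relative to the library size, on library sizes scaled by TMM, which aligns libraries on the bulk of their genes. Levels of different genes are compared only as RPKM, that is CPM per kilobase of the gene's combined exons. Differences are log2 fold changes, treated minus control, each with its standard error (SE). A gene was called at an adjusted p under 0.05 in edgeR's quasi-likelihood test over all genes of that tissue. Libraries held 17322770 to 20913964 counts in liver and 15605311 to 18062853 in macrophages. Within groups, untreated livers correlated at 0.955 to 0.977, and untreated replicate 1 was the lowest of the 3 for 59 of 77 members and untreated replicate 2 the highest for 60. LPS replicate 1 correlated less with the other LPS livers (0.976 and 0.979, against 0.993 between those), and mitochondrially encoded genes took 9.65% of its counts, against 6.24 and 6.21% in the other LPS livers and 5.06 to 5.45% in untreated livers. In macrophages shNC replicate 2 correlated less with the other shNC libraries (both 0.950, against 0.990). The hepatocyte markers Alb, Apoa1, Ttr, Serpina1a, Cyp3a11 and Hnf4a summed to 71032 to 114082 CPM in untreated livers and 56165 to 88179 CPM in LPS livers, and to at most 0.469 CPM in macrophages. Summed neutrophil markers, all 9 of them detected, stood at 3.05 to 8.42 CPM in untreated livers and 223 to 310 CPM in LPS livers. Summed erythroid markers stood at 157 to 273 and 563 to 1035 CPM, with 4 of 5 called higher under both scalings, and summed endothelial markers at 77.8 to 133 and 137 to 159 CPM, with 3 of 5 called higher and 1 lower (1 and 2 with library totals). Summed macrophage markers stood at 7924 to 11367 CPM with shNC and 16515 to 25840 CPM with shGm26917, with 3 of 6 markers called higher. In bulk RNA, more cells of a type and more RNA per cell cannot be told apart, and the part of these shifts in the members' values was not tested.

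Summed over the 78 members, liver held 1716, 2232 and 1944 CPM in untreated replicates 1 to 3 and 2969, 2781 and 2839 CPM in LPS replicates 1 to 3. All 3 LPS livers lay above all 3 untreated livers on this scale. As a share of all counts in the library, the same genes took 0.218, 0.238 and 0.223% in untreated and 0.261, 0.240 and 0.240% in LPS livers, so that on library totals the LPS values began just above the highest untreated value. In macrophages the members summed to 1918, 1650 and 2012 CPM with shNC and 2008, 1961 and 2152 CPM with shGm26917, and these groups overlapped. Their share of all counts was 0.184, 0.147 and 0.173% with shNC and 0.218, 0.220 and 0.238% with shGm26917, with no overlap. The shNC replicate 2 library was the lowest of its tissue on both scales.

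**Figure D1:**
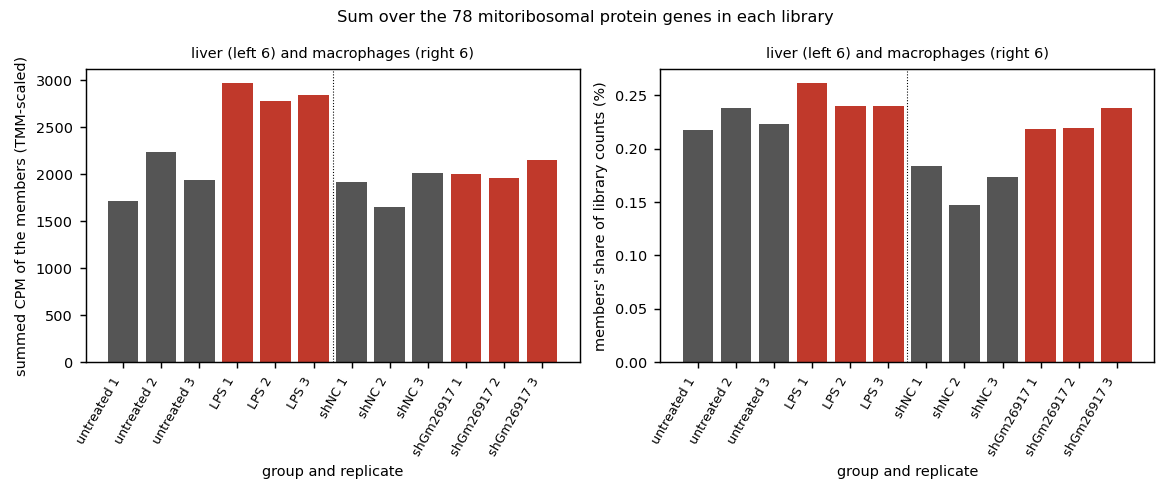
Bars show, for each of the 12 libraries, the CPM summed over the 78 members on TMM-scaled library sizes (left axis, CPM) and the members' share of all counts (right plot, %); grey bars are control and red bars treated libraries. On the TMM scale the LPS livers (2781 to 2969 CPM) stand above the untreated livers (1716 to 2232 CPM) and the macrophage groups overlap, whereas as a share of counts the macrophage groups do not overlap.

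The first comparison asked how the livers exposed to LPS differed from untreated livers. Of the 77 members tested, 65 had a log2 fold change above 0 and 12 below. By the test, 31 were called higher (40.3%) and 0 lower, where over all 13869 genes tested 23.3% were called higher and 22.1% lower. The groups did not overlap in 47 members that were higher and in 1 that was lower (Mrpl12), against 29.4% and 28.4% of all genes. The members' median log2 fold change was 0.50, against -0.06 for all genes. The count changed when 1 library was left out. It was 19 without LPS replicate 2 and 18 without LPS replicate 3, and 17 members stayed called whichever of the 6 libraries was left out. Counts over all genes in these fits are not given here, so whether the change is particular to the members was not tested.

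The scaling set how many members were called. With library totals in place of TMM, the median of all genes shifted to -0.49 and the median of the members to 0.084, and 7 members were called higher and 9 lower, beside 14% and 38.3% of all genes. Measured from the median of all genes, the members' median was 0.56 higher under TMM and 0.57 higher under library totals, and 69 of 77 members lay above that median under both. Of the members not called under TMM, 21 changed sign with library totals. The 7 members higher under both scalings were Mrpl18, Mrpl30, Mrps6, Mrpl54, Mrpl33, Mrpl52 and Mrps18a. Those lower with library totals alone were Mrps31, Mrpl9, Mrpl12, Mrps5, Mrpl40, Mrpl39, Mrpl1, Mrps23 and Mrpl15, and each of them had a log2 fold change between -0.47 and -0.01 under TMM.

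**Figure D2:**
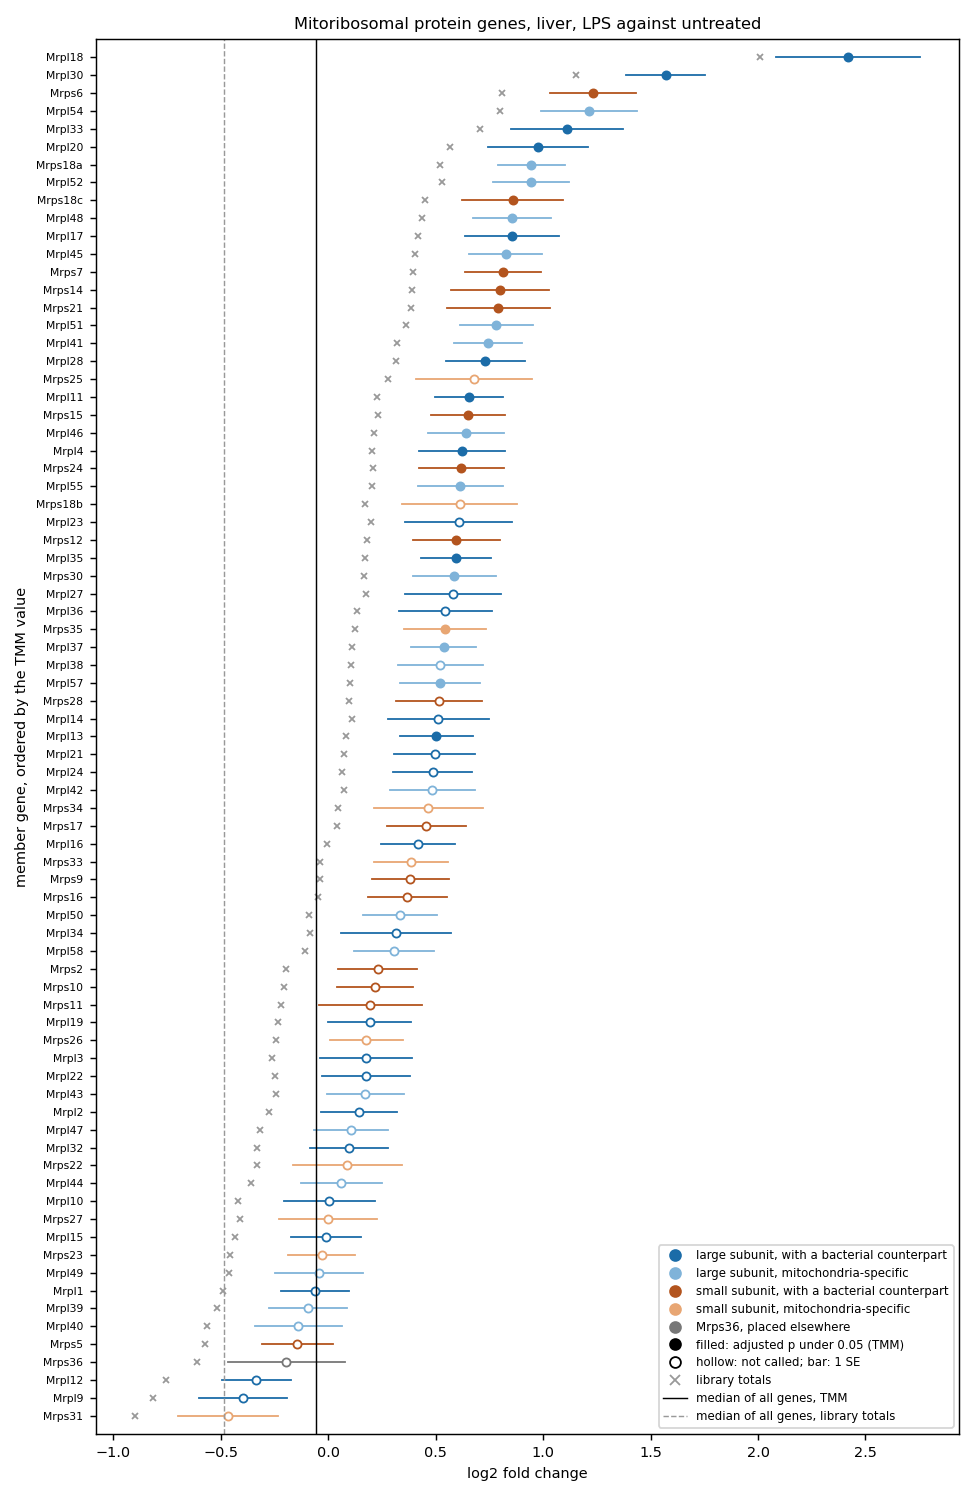
Log2 fold change of each of the 77 members tested in liver, LPS against untreated, with 1 SE as a bar under TMM (circles, filled where called, coloured by subunit and origin) and as a cross under library totals; vertical lines mark the median of all genes. Under TMM the values run from -0.47 (Mrps31) to 2.42 (Mrpl18) and 65 lie above 0, whereas under library totals 44 do and 21 members that were not called change sign.

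Among proteins of the large subunit with a bacterial counterpart, 10 of 28 were called higher, with a median log2 fold change of 0.50. Mrpl18, the counterpart of bacterial L18, which touches 5S ribosomal RNA in bacteria, stood at 23.8, 29.9 and 30.1 CPM in untreated livers and 235, 110 and 104 CPM in LPS livers. Every LPS liver was above every untreated one, with LPS replicate 1 more than the others. Its log2 fold change was 2.42 (SE 0.33, adjusted p = 0.000644), and between 1.95 and 2.64 when 1 library was left out. A shorter product of this gene has been described on cytosolic ribosomes of stressed cells, and counts per gene do not separate the forms. Of its exon bases, 10.1% are shared with Tcp1 on the opposite strand, a subunit of the cytosolic chaperonin TRiC, which itself had a log2 fold change of 0.83 (adjusted p = 0.00699). The sources used here do not say whether counting used strand, so reads from shared bases cannot be assigned.

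Mrpl30, the counterpart of bacterial L30, came next. It stood at 37.2, 49.6 and 44.7 CPM in untreated livers and 133, 134 and 123 CPM in LPS livers, a log2 fold change of 1.57 (SE 0.18, adjusted p = 0.000266). The LPS values lay close together and far above the untreated ones. It shares no exon bases with another gene, but its start lies 66 bases from that of Mitd1, which is read in the opposite direction and encodes a protein of cell division. Mitd1 stood at 5.69, 5.65 and 5.95 CPM in untreated livers and 29.3, 34.7 and 31.6 CPM in LPS livers (log2 fold change 2.47, SE 0.17, adjusted p = 1.48e-05). Both genes of this head-to-head pair were therefore higher, without overlap between groups.

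The start regions of these members and of Mrpl42 and Mrpl52, which led the macrophage comparison, are shown because the data concern how much RNA these genes give. Each runs from 250 bases before to 50 bases after the annotated start, from RefSeq on GRCm38.p6, and is written in the direction of transcription. Capitals mark matches, on either strand, to CCGGAAG (the core bound by ETS factors such as GABP), GCATGCG (part of the NRF1 site) or ATGGCGG (YY1). Mrpl18 (chr17:12916042-12916341, minus strand) holds 1 ETS core, Mrpl52 (chr14:54426659-54426958, plus strand) holds 2, and Mrpl30 (chr1:37890227-37890526, plus strand) and Mrpl42 (chr10:95501900-95502199, minus strand) hold none of the motifs.
Mrpl18: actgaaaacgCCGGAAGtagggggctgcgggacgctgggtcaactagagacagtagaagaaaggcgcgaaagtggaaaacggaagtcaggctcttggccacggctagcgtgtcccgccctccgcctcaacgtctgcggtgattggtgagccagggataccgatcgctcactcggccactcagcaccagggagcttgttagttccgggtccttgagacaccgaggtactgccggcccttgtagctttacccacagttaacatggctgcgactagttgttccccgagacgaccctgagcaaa
Mrpl30: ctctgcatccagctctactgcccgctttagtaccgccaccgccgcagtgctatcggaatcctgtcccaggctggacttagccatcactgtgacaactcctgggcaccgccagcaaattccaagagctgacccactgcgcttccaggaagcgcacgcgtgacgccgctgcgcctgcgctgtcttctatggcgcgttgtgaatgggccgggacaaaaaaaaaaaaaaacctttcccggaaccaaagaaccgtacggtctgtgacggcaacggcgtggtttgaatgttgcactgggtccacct
Mrpl42: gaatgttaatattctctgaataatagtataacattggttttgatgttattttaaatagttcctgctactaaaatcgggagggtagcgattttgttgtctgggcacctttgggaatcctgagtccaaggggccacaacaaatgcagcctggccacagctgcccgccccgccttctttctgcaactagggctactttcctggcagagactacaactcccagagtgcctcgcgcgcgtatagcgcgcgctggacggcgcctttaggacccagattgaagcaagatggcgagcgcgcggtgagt
Mrpl52: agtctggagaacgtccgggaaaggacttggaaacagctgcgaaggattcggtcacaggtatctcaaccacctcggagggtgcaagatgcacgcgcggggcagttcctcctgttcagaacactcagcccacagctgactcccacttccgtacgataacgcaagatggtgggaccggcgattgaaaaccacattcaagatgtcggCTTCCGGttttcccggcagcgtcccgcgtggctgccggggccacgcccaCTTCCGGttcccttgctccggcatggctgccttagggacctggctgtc
A match is a run of letters and no measured site, and a window without one says only that these letters are not in it.

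Mrpl33 and Mrpl20, both large subunit proteins with bacterial counterparts, also rose in liver. Mrpl33 stood at 9.33, 15.8 and 9.03 CPM in untreated livers and 29.7, 21.2 and 22.9 CPM in LPS livers (log2 fold change 1.11, SE 0.26, adjusted p = 0.00875). Mrpl20 stood at 23.3, 38.1 and 24.5 against 66.4, 48.8 and 53.9 CPM (log2 fold change 0.98, SE 0.23, adjusted p = 0.0096, and 0.052 with library totals). In both genes untreated replicate 2 was the highest untreated liver and still below every LPS liver.

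Mrpl12 and Mrpl10 of the ribosomal stalk were not called under TMM. Mrpl11, the counterpart of L11 at the base of the stalk in bacteria, was called higher (log2 fold change 0.66, SE 0.16, adjusted p = 0.0102), but not with library totals (0.23). Mrpl12, which forms the stalk that recruits translation factors and also binds the mitochondrial RNA polymerase, stood at 56.2, 68.2 and 66.3 CPM in untreated livers and 50.4, 52.5 and 48.3 CPM in LPS livers, a log2 fold change of -0.33 (SE 0.16, adjusted p = 0.122). Its groups did not overlap although it was not called, and it was called lower with library totals (log2 fold change -0.76, adjusted p = 0.00441). Mrpl10, which anchors Mrpl12 to the subunit, had a log2 fold change of 0.00 (SE 0.21), and of -0.42 with library totals. Mrpl9, another large subunit protein with a bacterial counterpart, had -0.40 (SE 0.21, adjusted p = 0.146), with 27.3, 34.5 and 44.1 CPM in untreated livers and 24.3, 27.2 and 28.9 CPM in LPS livers, which overlapped.

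Of the large subunit proteins found only in mitochondria, 12 of 22 tested were called higher, with a median of 0.53. Mrpl54 stood at 17.4, 22.7 and 15.7 CPM in untreated livers and 54.1, 36.9 and 38.2 CPM in LPS livers (log2 fold change 1.21, SE 0.22, adjusted p = 0.00276). Mrpl52 stood at 30.6, 40.4 and 34.7 against 75.1, 63.7 and 64.5 CPM (log2 fold change 0.94, SE 0.18, adjusted p = 0.00301). In both genes the groups were apart and LPS replicate 1 was highest. Mrpl45, which holds the ribosome to the inner membrane, rose by 0.82 on the log2 scale (SE 0.17, adjusted p = 0.00471). Mrpl58, a peptidyl-tRNA hydrolase built into the ribosome, had a log2 fold change of 0.31 (SE 0.19, adjusted p = 0.21, and -0.11 with library totals), and Mrpl40 one of -0.14 (SE 0.20).

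A member of this group could not be measured in liver. Mrpl53 had 0 counts in all 6 liver libraries and was not tested there. The annotation gives 88% of its exon bases also to Gm42688, a gene on the same strand, which held 0 to 9 counts in a liver library. In macrophages Mrpl53 had a level of 0.473 to 1.37 CPM and a log2 fold change of 0.21 (SE 0.44). There Gm42688 held 13 to 90 counts in a library and was called higher (log2 fold change 2.02, adjusted p = 0.00726). How reads from the shared bases were assigned is not known.

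Small subunit proteins with a bacterial counterpart gave 8 of 16 called higher, with a median of 0.56. Mrps6, the counterpart of bacterial S6, stood at 4.10, 5.01 and 5.30 CPM in untreated livers and 11.7, 10.7 and 11.4 CPM in LPS livers (log2 fold change 1.23, SE 0.20, adjusted p = 0.00152). The replicates of each group were close and the groups far apart. The annotation gives 19.9% of its exon bases also to Gm49711 on the same strand, which was not analysed here in liver. Mrps12, a protein of the decoding centre, had a log2 fold change of 0.59 (SE 0.20, adjusted p = 0.0403), a call that was lost in 5 of the 6 fits with 1 library left out. Mrps5, which lies near the entry of the messenger RNA, had -0.14 (SE 0.16, adjusted p = 0.499).

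The small subunit proteins found only in mitochondria showed the fewest calls, 1 of 10 (Mrps35), where 23.3% of all genes were called higher. Their median of 0.28 turned to -0.14 with library totals. Mrps31 had the lowest difference of all members in liver, -0.47 (SE 0.23, adjusted p = 0.134), with 35.1, 35.8 and 20.6 CPM in untreated livers and 21.8, 20.0 and 24.4 CPM in LPS livers. Untreated replicate 3 lay among the LPS values, and without it Mrps31 was called lower at -0.68. In this group Mrps25, Mrps34, Mrps18b and Mrps27 share 69.8, 63.4, 30.5 and 24.2% of their exon bases with a gene on the opposite strand. Those genes were all called in liver: Nr2c2 (log2 fold change -2.32), Mapk8ip3 (2.02), Gm16279 (1.94) and 6430562O15Rik (2.88). The last 2 were low, with means of at most 2.86 and 1.37 CPM. Whether this group differs from the other members, and how the shared bases bear on its counts, was not tested.

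The 3 Mrps18 paralogs sit in different places: Mrps18a in the large subunit, Mrps18b and Mrps18c in the small one. Mrps18a rose from 15.7, 16.9 and 17.7 CPM to 33.0, 32.8 and 31.1 CPM in liver, a log2 fold change of 0.94 (SE 0.15, adjusted p = 0.00156). Mrps18c had 0.86 (SE 0.23, adjusted p = 0.017, a call lost without LPS replicate 2 or without LPS replicate 3) and Mrps18b 0.61 (SE 0.27, adjusted p = 0.092). In macrophages the log2 fold changes were 0.13, 0.13 and -0.06 for Mrps18a, Mrps18c and Mrps18b, none called, and that of Mrps18b was 0.23 with library totals. Mrps18b shares 30.5% of its exon bases with Gm16279 on the opposite strand, and Mrps18c 23.2% with Gm43511 on its own strand. Mrps30, numbered as small subunit but found in the large one, had 0.59 in liver (SE 0.19, adjusted p = 0.0358), a call lost in 5 of 6 fits without 1 library. Mrps36, now placed in the 2-oxoglutarate dehydrogenase complex and not in the ribosome, had -0.20 (SE 0.27, adjusted p = 0.581).

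Levels of the 77 tested members in liver spanned 1.79 to 63.5 RPKM, averaged over the 6 libraries, and the median over all 78, with Mrpl53 at 0, was 10.1 RPKM. Mrpl18 was the most abundant through its LPS level, 107 RPKM against 20.0 RPKM in untreated livers. The next by mean level were Mrpl14 (57.7 RPKM), Mrps21 (55.6 RPKM) and Mrpl27 (47.8 RPKM). Their log2 fold changes were 0.51, 0.79 and 0.58, and of these genes Mrps21 alone was called (adjusted p = 0.026). The lowest tested levels were those of Mrps25 (1.79 RPKM) and Mrpl19 (1.91 RPKM). Mrps25 shares 69.8% of its exon bases with Nr2c2 on the opposite strand, which fell by 2.32 on the log2 scale, and Mrpl19 shares 36% with Gcfc2.

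The second comparison asked how LPS-treated macrophages with the Gm26917 hairpin differed from those with the control hairpin. Most mitoribosomal genes were not called. Of 78 members, all tested, 9 were called higher and 2 lower, where over all 12876 genes 12.6% were called higher and 11.1% lower. The groups did not overlap in 28 members that were higher and 5 that were lower, against 24.2% and 21.7% of all genes. The median log2 fold change was 0.17 for the members and -0.00 for all genes. Leaving out 1 library moved the counts to 4 higher and 1 lower without shNC replicate 1, 12 and 5 without shNC replicate 2, and 5 and 1 without shNC replicate 3. They were 3 and 1 without shGm26917 replicate 1, 3 and 0 without replicate 2, and 3 and 1 without replicate 3. Counts over all genes also moved in these fits, with their ranges given at the end of the report. Whether the change is particular to the members was not tested.

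Here too the scaling mattered. With library totals the median of all genes shifted to 0.29 and that of the members to 0.46, and 29 members were called higher and 1 lower, beside 24.3% and 6.17% of all genes. Measured from the median of all genes, the members' median was 0.18 higher under TMM and 0.17 higher under library totals. Of the members not called under TMM, 19 changed sign. The shNC replicate 2 library was the lowest of the 3 controls for 54 of 78 members, and without it the members' median was 0.093.

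**Figure D3:**
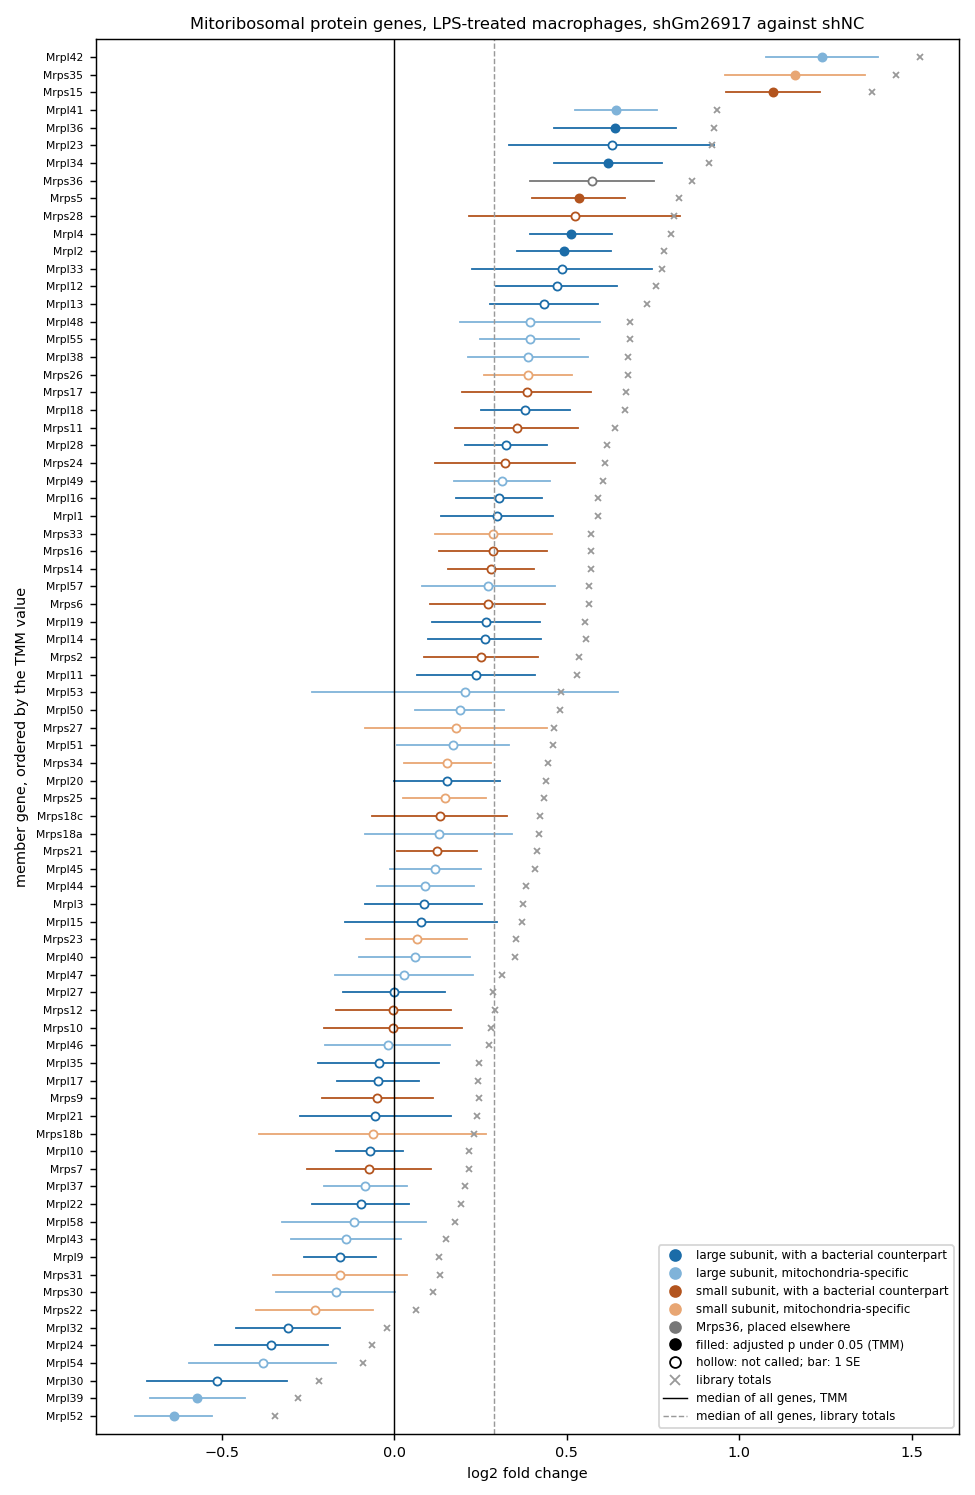
Log2 fold change of the 78 members in LPS-treated macrophages, shGm26917 against shNC, drawn as for liver: circles with 1 SE under TMM, filled where called, crosses under library totals, and vertical lines at the median of all genes. Mrpl42, Mrps35 and Mrps15 stand apart at 1.10 to 1.24 under TMM, Mrpl52 is lowest at -0.64, and 19 members that were not called change sign between the scalings.

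The 3 members that led the macrophage comparison came from different parts of the ribosome. Mrpl42, a mitochondria-specific protein of the large subunit, stood at 12.9, 12.8 and 9.32 CPM with shNC and 26.4, 28.2 and 28.3 CPM with shGm26917 (log2 fold change 1.24, SE 0.16, adjusted p = 0.00526). Mrps35, a mitochondria-specific protein of the small subunit, stood at 5.03, 6.35 and 5.54 against 10.7, 11.7 and 15.5 CPM (log2 fold change 1.16, SE 0.20, adjusted p = 0.0112). Mrps15, the counterpart of bacterial S15, stood at 27.9, 24.6 and 22.3 against 49.6, 60.1 and 50.3 CPM (log2 fold change 1.10, SE 0.14, adjusted p = 0.00487). In these 3 genes every shGm26917 library was above every shNC library, and the calls held in all 6 fits without 1 library and with library totals. None of them shares over 5% of its exon bases with another gene.

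The other 6 members called higher had log2 fold changes of 0.49 to 0.64. Mrpl41, a mitochondria-specific protein of the large subunit, stood at 17.6, 17.0 and 19.2 CPM with shNC and 28.5, 26.2 and 29.3 CPM with shGm26917 (0.64 on the log2 scale, SE 0.12, adjusted p = 0.0131), and lost its call when any 1 of the shGm26917 libraries was left out. Mrpl36, Mrpl34, Mrpl4 and Mrpl2, all large subunit proteins with bacterial counterparts, and Mrps5 of the small subunit had log2 fold changes of 0.64, 0.62, 0.51, 0.49 and 0.53. Their calls were lost in 4 or 5 of the 6 fits without 1 library: without shNC replicate 1 and without each of the 3 shGm26917 replicates for all 5 genes, and for all but Mrpl34 also without shNC replicate 3. All 6 stayed called with library totals.

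Mrpl52 and Mrpl39, mitochondria-specific proteins of the large subunit, were the members called lower. Mrpl52 stood at 105, 108 and 121 CPM with shNC and 73.0, 66.4 and 74.9 CPM with shGm26917. Its log2 fold change was -0.64 (SE 0.11, adjusted p = 0.011) and -0.35 with library totals (adjusted p = 0.0457), and it was called in 5 of 6 fits without 1 library, not without shGm26917 replicate 2. Mrpl39 stood at 39.7, 39.4 and 46.0 against 28.4, 24.2 and 31.5 CPM (log2 fold change -0.57, SE 0.14, adjusted p = 0.0289). In both genes the groups were apart, but the Mrpl39 call was lost with library totals (-0.28, adjusted p = 0.154) and held only without shNC replicate 2 among those 6 fits.

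Mrpl30 and its neighbour Mitd1 both had negative values in macrophages. Mrpl30 stood at 27.8, 46.6 and 33.2 CPM with shNC and 26.8, 22.8 and 25.7 CPM with shGm26917 (log2 fold change -0.51, SE 0.20, adjusted p = 0.11), so that the groups did not overlap but it was not called. Mitd1 stood at 18.8, 66.2 and 36.5 against 9.83, 9.36 and 9.53 CPM (log2 fold change -2.08, SE 0.43, adjusted p = 0.0178), a call lost when any 1 of the 3 shGm26917 libraries was left out. The shNC replicate 2 library was the highest for both genes. Both genes of the pair thus lay on the same side of 0 in each tissue, above it in LPS livers and below it in shGm26917 macrophages, also with library totals.

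The remaining low members were not called. They were Mrpl54 (-0.38, SE 0.21), Mrpl24 (-0.36, SE 0.16) and Mrpl32 (-0.31, SE 0.15) on the log2 scale. Mrpl24 shares 26.3% of its exon bases with Rrnad1 on the opposite strand. Of the members with particular roles, Mrpl12 had 0.47 (SE 0.17, adjusted p = 0.0955, and adjusted p = 0.0243 with library totals), Mrpl10 -0.07, Mrps12 -0.00, Mrpl45 0.12, Mrpl58 -0.12, Mrps30 -0.17 and Mrps36 0.57 (SE 0.18, adjusted p = 0.0595). With library totals the negative values among these turned positive, at 0.22 for Mrpl10, 0.29 for Mrps12, 0.18 for Mrpl58 and 0.11 for Mrps30. Mrps36, which is placed outside the ribosome, was called higher with library totals (0.86, adjusted p = 0.0177). It is thus among the members counted as higher under that scaling. By level, Mrpl52 was the most abundant member in macrophages, at 100 RPKM with shNC and 64.4 RPKM with shGm26917. Mrpl54 (44.9 RPKM over all 6 libraries), Mrps21 (39.7 RPKM) and Mrpl34 (33.3 RPKM) followed. The lowest levels were those of Mrps35 (1.06 RPKM) and Mrpl23 (0.738 RPKM, log2 fold change 0.63, SE 0.30, adjusted p = 0.165).

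**Figure D4:**
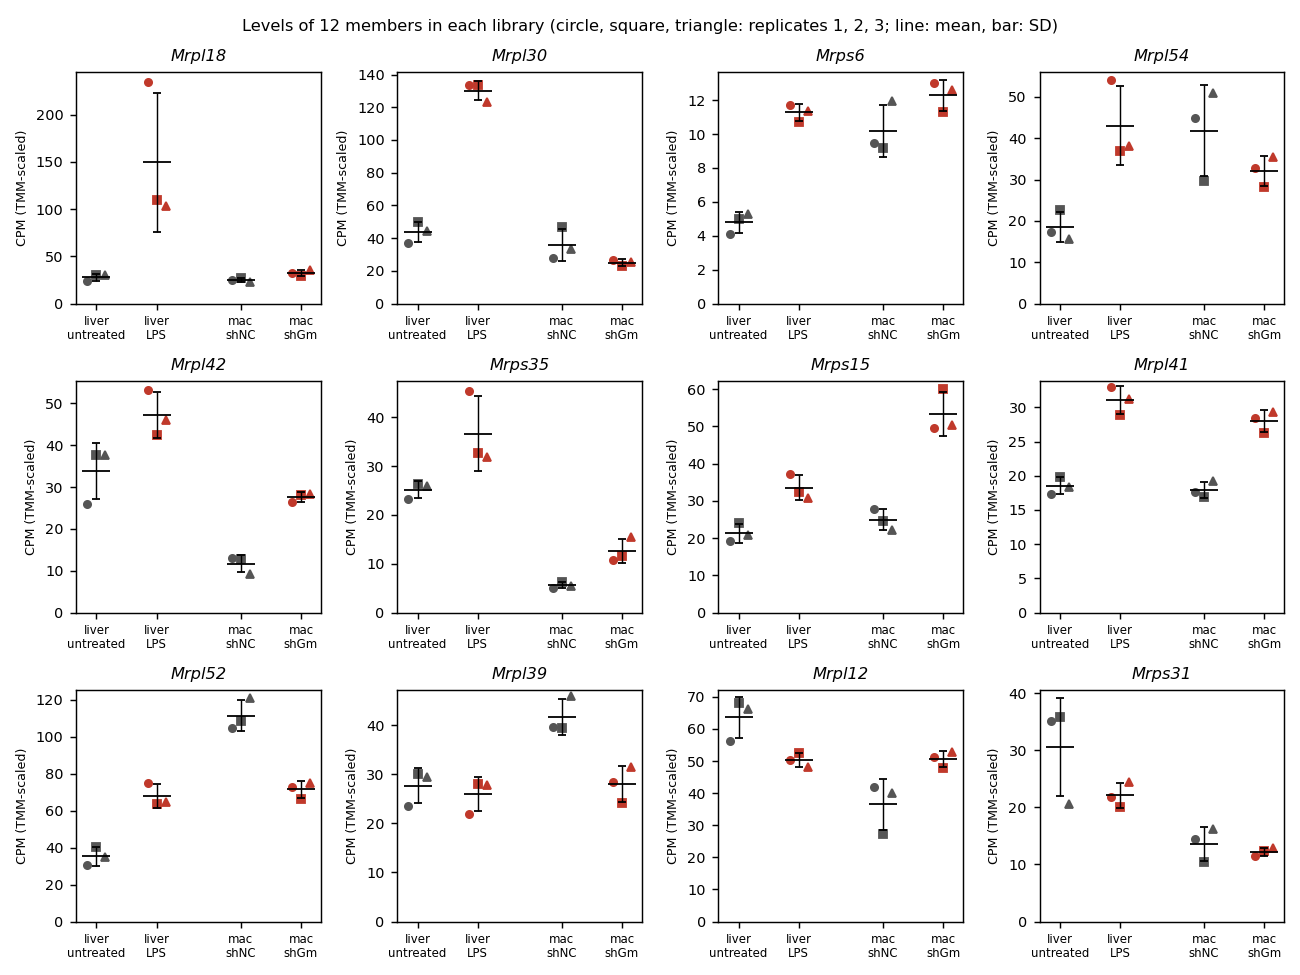
CPM on TMM-scaled library sizes (vertical axes, from 0, each with its own range) of 12 members in liver and macrophage (mac) libraries; circles, squares and triangles are replicates 1, 2 and 3, black lines the mean and bars the SD of 3 libraries, grey control and red treated, with shGm standing for shGm26917. Mrpl18 and Mrpl30 are high in LPS livers alone, Mrpl42, Mrps35 and Mrps15 are higher in every shGm26917 than in every shNC library, and Mrpl52 is higher with LPS in liver and lower with shGm26917 in macrophages.

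Set beside each other, the 2 comparisons shared 5 called members. Of the 77 members tested in both, these are 6.49%, where 12.4% of the 11400 genes tested in both tissues were called in both, in any direction. A further 26 members were called in liver alone, 6 in macrophages alone and 40 in neither. The shared ones are 16.1% of the members called in liver and 45.5% of those called in macrophages. Mrps15, Mrps35, Mrpl41 and Mrpl4 were higher in both, and Mrpl52 was higher in LPS livers and lower in shGm26917 macrophages. Across the 77 members the log2 fold changes had a Pearson r of 0.023 and a Spearman rho of 0.066, as a description of genes that share their libraries. The members' control levels, in contrast, were ordered alike in both tissues, with a rho of 0.89 between mean RPKM in untreated liver and in shNC macrophages, over 78 genes whose lengths enter both values. A difference between the 2 comparisons was not tested, because they differ in tissue, agent and control.

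In liver these shared members changed moderately. Mrps15 stood at 19.1, 24.1 and 20.8 CPM in untreated livers and 37.2, 32.3 and 30.9 CPM in LPS livers (log2 fold change 0.65, SE 0.17, adjusted p = 0.0146). Mrpl41 stood at 17.4, 19.8 and 18.4 against 32.9, 28.9 and 31.3 CPM (log2 fold change 0.74, SE 0.16, adjusted p = 0.00566). Both were called in all 6 fits without 1 library, with no overlap of the groups. Mrps35 (log2 fold change 0.54, adjusted p = 0.0447) lost its liver call in all 6 of these fits, and Mrpl4 (0.62, adjusted p = 0.0327) in 5 of them. With library totals none of these 4 genes was called in liver, and all 4 were called in macrophages.

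**Figure D5:**
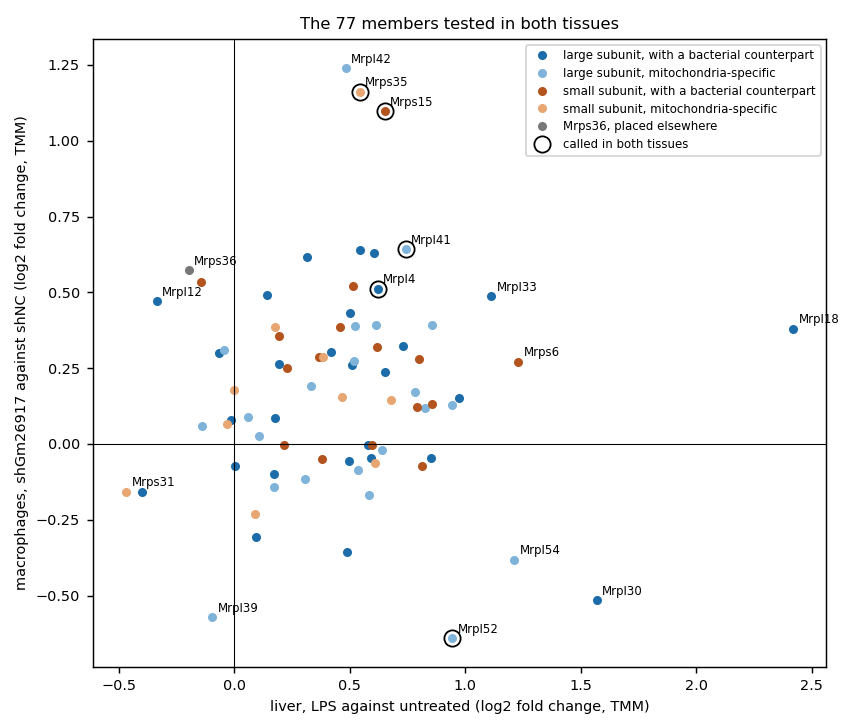
Each point is 1 of the 77 members tested in both tissues, with its log2 fold change under TMM in liver (horizontal, LPS against untreated) and in macrophages (vertical, shGm26917 against shNC); colours give subunit and origin and rings mark the 5 members called in both. Mrpl18 lies farthest right (2.42 in liver, 0.38 in macrophages) and Mrpl42 highest (0.48 and 1.24), whereas Mrpl30, Mrpl54 and Mrpl52 lie in the lower right, with liver values of 1.57, 1.21 and 0.94 and macrophage values of -0.51, -0.38 and -0.64.

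What the members share beyond their names was read from the annotation. They lie on 17 chromosomes, with at most 11 on any of them, and none on X. A protein-coding gene starts within 1000 bases on the opposite strand of 33 of the 78 members (42.3%), against 10.8% of all 22028 protein-coding genes. In liver both genes of 28 such pairs were tested, with 12 members and 14 partners called, and 4 pairs (14.3%) had both called higher, where 7.38% of the 826 pairs without a member did: Mrpl18 with Tcp1, Mrpl30 with Mitd1, Mrpl48 with Rab6a and Mrps7 with Gga3. In any direction, both genes were called in those same 4 pairs and in 19.4% of the pairs without a member. With library totals Mrpl30 with Mitd1 alone of these 4 kept both calls. Both genes were then called higher in 3.57% of the pairs with a member and 3.03% of those without. In macrophages 3 of 27 pairs (11.1%) had both called, each higher, against 2.28% of 832 other pairs: Mrpl2 with Klc4, Mrpl36 with Ndufs6 and Mrpl41 with Pnpla7. These 3 pairs kept both calls with library totals, where 8.65% of the other pairs had both genes called higher. Under TMM, Mrpl2, Mrpl36 and Ndufs6 each lost the call without shNC replicate 1, without shNC replicate 3 and without each shGm26917 replicate. Mrpl41 lost its call without each shGm26917 replicate. In any direction, both genes were called in 4.81% of the other macrophage pairs under TMM and in 9.74% with library totals. The 2 genes of a pair can share exon bases on opposite strands, as Mrpl18, Mrpl48 and Mrps7 do with their partners, and these pairs were named after their values were seen. In all, 25 members share over 5% of their exon bases with another gene. Without them the liver counts were 23 higher and 0 lower of 53 with a median of 0.50, and the macrophage counts 9 and 2 with a median of 0.25.

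Promoter sequences were found for 69 of the 78 members. The ETS core CCGGAAG occurred on either strand in 26 of them (37.7%), against 12.9% of protein-coding genes in the same table and 9.93% of all genes. ATGGCGG (YY1) occurred in 18.8% of member promoters against 6.05% of protein-coding ones, and GCATGCG (part of the NRF1 site) in 11.6% against 4.96%. The GC box GGGCGG occurred in 49.3% and 49.2%, the E-box CACGTG in 7.25% and 8.91%, and TATAAA in 7.25% and 14.8%. Other families held these motifs too, with shares that differed by motif and family. Among 61 promoters of cytosolic ribosomal protein genes the ETS core occurred in 39.3%, the YY1 motif in 18% and the NRF1 motif in 6.56%, and among 66 of nuclear respiratory chain subunits in 24.2%, 15.2% and 16.7%. Members with and without the ETS core had median log2 fold changes of 0.52 and 0.48 in liver and of 0.13 and 0.24 in macrophages, and no test of this difference was made.

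Length and level were looked at across members, as descriptions. In liver the Spearman rho of the log2 fold change with exon length was -0.12 across 77 members and -0.17 across all genes with a length, and with mean CPM it was 0.26 across members and 0.19 across all genes. In macrophages the values were -0.05 and -0.02 for length, and -0.14 and -0.19 for CPM. Members are short, with a median exon length of 2394 bases in the macrophage set against 4201 bases over all genes tested there. Members at or below that length and those above it had medians of 0.51 and 0.48 in liver and of 0.18 and 0.17 in macrophages.

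The other parts of mitochondrial translation were read from lists of genes. In liver the families of cytosolic ribosomal proteins and respiratory chain subunits also had many genes called higher. Factors that serve the mitoribosome were called in both directions, as were all genes (23.3% higher and 22.1% lower). With library totals 14% of all genes were called higher and 38.3% lower, with a median of -0.49. Of cytosolic ribosomal proteins 65 of 80 were called higher and 0 lower (median log2 fold change 0.92), of nuclear-encoded respiratory chain subunits 42 of 80 higher and 2 lower (0.61), and of mitochondrially encoded messenger RNAs 8 of 13 higher and 0 lower (0.98). With library totals these counts were 25 and 0, 15 and 4, and 4 and 1, with medians of 0.50, 0.20 and 0.56. Without LPS replicate 1, the library with the high mitochondrial share, they were 51 of 81 and 0, 25 of 80 and 2, and 5 of 13 and 0, with medians of 0.77, 0.58 and 0.73. The largest called change in each list was that of Rps20 (1.48 on the log2 scale), Ndufa4l2 (-2.26), a subunit known from hypoxia, and mt-Co3 (1.71). Ndufa4l2 had a low level, at a mean of 1.48 CPM untreated and 0.308 CPM after LPS. The largest called rise in its list was that of Ndufb2 (1.56). Among factors that assemble the mitoribosome or modify its RNA, 6 of 25 were higher and 3 lower, with a median of -0.17 (1 and 10 with library totals). The largest called change was that of Trmt61b, a methyltransferase of mitochondrial RNA (log2 fold change 1.17). Its mean was 2.17 CPM untreated and 4.89 CPM after LPS, and it was not called with library totals (adjusted p = 0.139). Malsu1, which keeps unfinished large subunits from joining the small one, rose by 1.06 on the log2 scale (SE 0.18, adjusted p = 0.00173). Mitochondrial translation factors gave 3 of 18 higher and 4 lower, with a median of -0.28 (1 and 12 with library totals). Mtif3, an initiation factor, stood at a mean of 15.7 ± 3.07 CPM (SD over 3 livers) untreated and 4.24 ± 0.716 CPM after LPS (log2 fold change -1.89, SE 0.23, adjusted p = 0.000353).

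Of genes for mitochondrial transcription and DNA upkeep, 1 of 12 was higher and 4 were lower in liver (median -0.28), led by Polg2, an accessory subunit of the DNA polymerase, at -1.23. Tfam, which packages mitochondrial DNA and starts its transcription, fell from 42.4, 40.9 and 52.7 to 18.8, 23.8 and 26.1 CPM (log2 fold change -0.98, SE 0.19, adjusted p = 0.00385). Mitochondrial aminoacyl-tRNA synthetases gave 4 of 17 higher and 3 lower, led by Pars2 (-1.17), and protein import with proteases 6 of 30 higher and 0 lower, led by the protease Clpp (0.97). With library totals the synthetases gave 0 higher and 7 lower and the import list 1 higher and 10 lower. Over all genes 14% were then called higher and 38.3% lower. The medians of the synthetases and the import list, 0.029 and 0.13, turned to -0.39 and -0.29, where the median of all genes was -0.49. Of 5 mitoribosomal proteins without a numbered symbol 1 was higher, Dap3, a GTP-binding protein of the small subunit (log2 fold change 1.07, SE 0.24, adjusted p = 0.00756).

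Regulators of nuclear genes for mitochondria moved in both directions in liver, with 3 of 10 higher and 5 lower. The coactivator Pprc1 rose from 8.19, 5.42 and 7.51 to 47.9, 35.9 and 32.0 CPM (log2 fold change 2.45, SE 0.24, adjusted p = 9.16e-05). Its relatives Ppargc1a and Ppargc1b, the inducers of mitochondrial biogenesis known as PGC-1 alpha and beta, fell, with log2 fold changes of -3.05 and -3.45 (SE 0.52 and 0.48). The 2 subunits of the ETS factor GABP went apart: Gabpa had -0.86 (SE 0.19, adjusted p = 0.00634) and Gabpb1 1.87 (SE 0.23, adjusted p = 0.000326). Nrf1 was not called (0.33, SE 0.19, adjusted p = 0.2).

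In shGm26917 macrophages the assembly factors gave 6 of 25 higher and 0 lower (median 0.22), the translation factors 3 of 18 and 0 (0.20), and the aminoacyl-tRNA synthetases 6 of 17 and 0 (0.34). The largest called changes in these lists were those of the GTPase Mtg1 (1.12 on the log2 scale), the elongation factor Guf1 (1.52, a call lost without shGm26917 replicate 2 or without shGm26917 replicate 3) and Nars2 (0.97). Lrpprc, which stabilises mitochondrial messenger RNAs, rose from 42.3, 28.2 and 42.5 to 80.1, 76.1 and 76.3 CPM (log2 fold change 1.04, SE 0.17, adjusted p = 0.00974). Respiratory chain subunits gave 25 of 77 higher and 0 lower (0.31), led by Ndufb2 (0.93). Cytosolic ribosomal proteins gave 0 of 81 higher and 1 lower (0.031), Rpl7l1 (-0.53), which is in that list by the pattern of its symbol alone. Mitochondrially encoded messenger RNAs gave 0 of 10 in either direction (0.32), and transcription and DNA upkeep 0 of 11 (0.29). Protein import and proteases gave 1 of 31 higher, Dnajc19 (0.48), and 1 lower, Afg3l2 (-0.44), with a median of 0.093, and the mitoribosomal proteins without a number 0 of 5 (0.064). With library totals more genes were called higher, and the share of all genes called higher went from 12.6% to 24.3%. In the lists these were 53 of 77 respiratory chain subunits, 7 of 81 cytosolic ribosomal proteins, 9 of 17 synthetases and 8 of 25 assembly factors. Also called higher were 6 of 18 translation factors, 4 of 11 genes of transcription and DNA upkeep and 3 of 31 of import. No gene of these lists was then called lower, and Rpl7l1 and Afg3l2 lost their calls (adjusted p = 0.155 and 0.406). Without shNC replicate 2, cytosolic ribosomal proteins gave 1 higher and 6 lower and the import list 0 higher and 7 lower, and their medians turned to -0.14 and -0.082. The medians of mitochondrially encoded messenger RNAs and of transcription and DNA upkeep were then 0.049 and 0.15, still with no calls. Synthetases gave 9 of 17 higher (0.44), assembly factors 8 of 25 higher and 1 lower (0.14). Translation factors gave 4 of 18 higher (0.11) and respiratory chain subunits 24 of 78 (0.25).

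The regulators gave 1 of 9 higher and 3 lower in macrophages, with a median of -0.26 that turned to 0.031 with library totals. Ppargc1b had a mean of 0.898 ± 0.575 CPM (SD over 3 libraries) with shNC and 10.9 ± 1.99 CPM with shGm26917 (log2 fold change 3.58, SE 0.46, adjusted p = 0.0051), called in all 6 fits without 1 library. Gabpa (-0.58, SE 0.12, adjusted p = 0.0167), Gabpb1 (-0.77, SE 0.19, adjusted p = 0.0301) and Nrf1 (-0.50, SE 0.12, adjusted p = 0.029) were lower. None of these 3 was called with library totals, and each lost its call when any 1 of the 3 shGm26917 libraries was left out. Gabpb1 and Nrf1 also lost theirs without shNC replicate 1 and without shNC replicate 3.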

How the data were processed

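Each library was deposited as a table of counts, that is whole reads per Ensembl gene ID, per the file headers. The macrophage headers add the word combined, which the sources used here do not explain. STAR, featureCounts 1.6.3 and mm10 are named per the submitters' processing notes. The sources used here give no annotation, use of strand or handling of multi-mapped reads. Depth per library stands in the report. Liver and macrophage tables held different gene IDs (49022 shared), so each tissue was fitted alone. Symbols came from a table of gene names, without a match for 259 liver and 260 macrophage IDs. Positions, exon lengths and overlaps are from GENCODE M21 (GRCm38, that is mm10).

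Counts were tested in edgeR 4.0.16 (R 4.3.3) with filterByExpr, TMM, the quasi-likelihood F test (2-sided) and Benjamini-Hochberg adjustment over all genes tested. The SE was obtained as |log2 fold change| over the root of F. The scripts were tested on simulated data first. The members, lists and tests were chosen with earlier results of these data known. In each tissue the text names the 6 members with the highest and the 6 with the lowest log2 fold change, the 4 highest and 2 lowest by RPKM, those called in both tissues, members with particular roles, and list genes led by the size of their change. Mitd1, Tcp1, other neighbours, and the list genes Gabpa, Malsu1, Tfam, Lrpprc and Nrf1, were named after their values were seen, as were members given for losing a call or for their calls under library totals. Alternatives were library totals, RLE size factors, DESeq2 1.42.0, no filter, a filter of 1 CPM in 3 libraries, all 12 libraries in 1 fit, a replicate block, each library left out, and, chosen after seeing the data, members without shared exons and the gene lists without LPS replicate 1 or shNC replicate 2.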

Additional observations from a re-analysis of the deposited data

How the results depend on the processing

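The count of members called and their median depended on the scaling. With library totals, liver members called were 7 higher and 9 lower in place of 31 and 0, with a median log2 fold change of 0.084 in place of 0.50, and all genes 1943 higher and 5305 lower in place of 3227 and 3060. In macrophages they were 29 and 1 in place of 9 and 2, with a median of 0.46 in place of 0.17, and all genes 3135 and 794 in place of 1618 and 1431. With all 12 libraries in 1 fit, 1 liver member was called lower and 5 macrophage members higher. Leaving out 1 library at a time gave 18 to 32 higher and 0 to 1 lower liver members. In macrophages it gave 3 to 12 higher and 0 to 5 lower members, and 479 to 2715 higher and 360 to 2521 lower genes in all. The members' median stayed between 0.38 and 0.55 in liver and between 0.093 and 0.23 in macrophages over these fits. No named member that was called changed sign under any alternative. For the fit of all 12 libraries, the member calls in the other direction are not given here. Counts over all genes are not given for that fit or for the liver fits without 1 library. Whether those member counts differ from all genes was not tested.

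Whether replicate numbers pair the samples cannot be decided from 3 libraries per group. Deviations of same-numbered samples correlated at 0.12, 0.05 and -0.08 in liver and at -0.04, 0.24 and 0.18 in macrophages. Those of differently numbered samples correlated at -0.19 to 0.12 in liver and at -0.24 to 0.16 in macrophages. With a replicate block the counts were 25 higher and 0 lower liver members and 7 higher macrophage members. With DESeq2, 27 liver members were called higher. Counts over all genes with the block and with DESeq2 are not given here, so whether these changes are particular to the members was not tested. The lowest count of a tested member in a library was 90 in liver and 7 in macrophages (Mrpl53). How depth bears on the calls was not tested.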
